A study of Mus musculus with 55 samples.

Results

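FAM20C, TSPO, ATP13A2, SEMA6B, MCAM, ENTPD3 and ASPRV1 are 7 genes, of 15728 gene symbols measured, that were higher in granulocytes of mouse bone marrow carrying breast cancer metastases than in granulocytes of normal marrow. They were picked for that rise in early or late peripheral metastatic marrow, so their differences between those marrows and normal marrow, and between early and late peripheral marrow, are described and carry no test. Comparisons of the late core, and of normal granulocytes with T cells, share 1 arm with that choice, and their p-values take no account of it. All 7 were found by symbol in every library. The study sorted granulocytes, CD4+ T helper cells (CD4), CD8+ T cytotoxic cells (CD8) and CD4+CD25+ regulatory T cells (Treg) from bone marrow and sequenced 55 MARS-seq libraries, a protocol for small RNA inputs, prepared from total RNA. Each population came from normal marrow, from marrow at an early metastatic stage, and from 2 sites of mice at the late stage: the peripheral marrow (called late peripheral here) and the metastatic core of the same mouse (late core). Granulocytes had 4 normal, 4 early, 4 late peripheral and 3 late core libraries. The other 40 libraries were T cells, with 4 normal, 4 early, 4 late peripheral and 3 late core in CD4, 4, 4, 2 and 2 in CD8, and 4, 3, 3 and 3 in Treg. The labels name no strain, age, sex, genotype or tumour line. The late core granulocytes carry the tissue label of bone marrow and were grouped by their titles. Separate animals are not stated for the libraries of a group, so the spread between them may be partly technical.

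The 7 genes encode proteins of different compartments, and no single pathway joins them. FAM20C is the Golgi kinase that phosphorylates secreted proteins, among them caseins and matrix proteins of bone and tooth. TSPO is a protein of the outer mitochondrial membrane that binds cholesterol and porphyrins, and is used in imaging as a marker of activated myeloid cells. ATP13A2 is a lysosomal P-type ATPase that moves polyamines out of the lysosome. SEMA6B is a transmembrane semaphorin, known as a guidance ligand for plexins in the nervous system. MCAM, also called CD146, is an immunoglobulin-family adhesion molecule of endothelium, pericytes and melanoma cells. ENTPD3 is an ectoenzyme that removes phosphates from extracellular nucleotides, and ASPRV1 is a retroviral-like aspartic protease that processes filaggrin in the epidermis. Granulocytes are the short-lived phagocytes of the marrow, most of them neutrophils, and those expanded by tumours are studied as suppressors of T cells.

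The genes lie apart in the GRCm38 genome (GENCODE annotation), so none shares a locus with another: Fam20c at chr5:138754514-138810077, Tspo at chr15:83563592-83574203, Atp13a2 at chr4:140986873-141007330, Sema6b at chr17:56123085-56140343 on the minus strand, Mcam at chr9:44134469-44142727, Entpd3 at chr9:120539818-120568327 and Asprv1 at chr6:86628164-86629710. Tspo overlaps Mcat, and Mcam overlaps the antisense gene Gm10687, on the opposite strand at the start of each gene. Neither the labels nor the submitters' processing notes say whether counting used strand. The stretches just before the annotated starts of ATP13A2, SEMA6B, ENTPD3 and ASPRV1 are printed because these 4 genes are the ones for which most of the RefSeq promoter window (GRCm38.p6) lies outside the transcribed region. They were read at chr4:140986671-140986872, chr17:56140344-56140593 on the minus strand, chr9:120539568-120539817 and chr6:86627924-86628163, and capitals mark the motifs found on either strand.
ATP13A2: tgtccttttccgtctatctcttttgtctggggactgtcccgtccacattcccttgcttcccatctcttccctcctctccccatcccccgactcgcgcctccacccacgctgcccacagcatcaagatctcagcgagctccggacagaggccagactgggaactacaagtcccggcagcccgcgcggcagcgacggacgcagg
SEMA6B: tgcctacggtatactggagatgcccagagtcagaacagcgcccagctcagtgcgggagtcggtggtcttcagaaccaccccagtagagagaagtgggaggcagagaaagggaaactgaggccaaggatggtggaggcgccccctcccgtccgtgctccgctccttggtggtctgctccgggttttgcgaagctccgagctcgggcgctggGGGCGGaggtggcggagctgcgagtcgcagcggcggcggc
ENTPD3: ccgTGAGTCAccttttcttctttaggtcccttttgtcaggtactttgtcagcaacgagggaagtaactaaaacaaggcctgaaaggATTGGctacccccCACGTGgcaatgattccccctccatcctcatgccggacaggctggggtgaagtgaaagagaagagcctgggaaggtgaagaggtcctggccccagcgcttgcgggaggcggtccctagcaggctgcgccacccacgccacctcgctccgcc
ASPRV1: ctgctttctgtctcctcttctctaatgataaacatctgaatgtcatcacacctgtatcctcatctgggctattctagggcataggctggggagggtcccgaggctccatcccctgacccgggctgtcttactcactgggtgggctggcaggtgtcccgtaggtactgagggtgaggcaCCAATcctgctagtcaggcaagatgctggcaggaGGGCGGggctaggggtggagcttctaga
The ENTPD3 stretch holds an AP-1 motif (TGANTCA) near its start, then, on the minus strand, the box CCAAT, followed by the E-box CACGTG. The SEMA6B stretch holds the GC box, GGGCGG, and the ASPRV1 stretch both the box CCAAT and a GC box. None of the motifs searched is in the ATP13A2 stretch. Over the 250 bases before all 32851 mouse promoters in the table, TGANTCA is in 6.75%, CACGTG in 6.02%, CCAAT in 33.8% and GGGCGG in 32.7%, on either strand. The search also covered 4 further motifs, TATAAA (in 12.4% of all promoters), GAGGAA (23.3%), TTGCNNAA (9.56%) and TTCNNNGAA (7.02%). None of those 4 was found in the 4 printed stretches, and no motif was common to all of the 4. For FAM20C and MCAM, most of the window lies within the annotated gene and is not shown, and TSPO is named only.

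Values are reads divided by a scaling factor for each library, as deposited, called normalised reads below. Granulocyte libraries held 357058 to 1633022 recovered reads, CD4 libraries 68263 to 876798, CD8 libraries 43224 to 1148806 and Treg libraries 90075 to 429903. The granulocyte label fitted its markers: 7 neutrophil genes summed to between 30798 and 155655 normalised reads in the 15 granulocyte libraries, and CD3E stayed at or below 3.42. Transcripts of 6 lung genes, such as SFTPC and SCGB1A1, summed to over 200 in 24 of the 55 libraries, of which 7 were granulocytes: 2 normal, 2 early, 1 late peripheral and 2 late core. In bulk libraries, a larger share of cells expressing a gene and more RNA per cell cannot be told apart.

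FAM20C, the secretory-pathway kinase, was low in normal granulocytes and was 12.8-fold higher in the mean of the early group. It had 9.26, 11.2, 10.4 and 7.40 normalised reads in the 4 normal libraries, 155, 125, 96.3 and 116 in the early ones, 47.8, 49.6, 133 and 112 in the late peripheral ones, and 92.6, 48.6 and 150 in the late core. Every diseased library was above every normal one, and in both late groups the libraries spread over a wide range, with 48.6 and 150 as the ends of the late core. Group means were 9.58 ± 1.67 (SD, n = 4), 123 ± 24.3 (n = 4), 85.6 ± 43.4 (n = 4) and 97.0 ± 50.9 (n = 3).

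TSPO, the mitochondrial membrane protein, had 651, 714, 572 and 646 normalised reads in normal granulocytes and 3469, 2358, 2605 and 2091 in early ones. The late peripheral libraries had 1466, 1674, 2085 and 2646, and the late core had 2104, 1535 and 2072. The lowest diseased library was thus above the highest normal one by more than the whole range of the normal group. Group means over normal were 4.07-fold in early, 3.05-fold in late peripheral and 2.95-fold in late core marrow.

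ATP13A2, the lysosomal polyamine transporter, had 15.7, 19.5, 23.9 and 23.3 normalised reads in normal granulocytes, against 105, 89.0, 145 and 80.2 in early ones. It had 124, 155, 194 and 134 in late peripheral granulocytes and 120, 85.5 and 165 in the late core. The diseased libraries lay above all normal ones and overlapped each other between groups, with mean folds over normal of 5.09, 7.38 and 6.01 in the 3 marrows in that order.

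SEMA6B, the transmembrane guidance ligand, had 8.34, 7.50, 19.5 and 15.9 normalised reads in normal granulocytes and 86.1, 63.5, 93.9 and 64.4 in early ones. Late peripheral libraries had 66.7, 87.6, 97.0 and 108, and the late core had 130, 59.8 and 97.4. The mean folds over normal were 6.0, 7.0 and 7.46, and the 3 diseased groups overlapped.

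MCAM, the adhesion molecule, was the one gene whose level in the late core came near the normal level. It had 7.41, 0.750, 3.04 and 2.59 normalised reads in normal granulocytes, from 8, 1, 7 and 7 reads. Early libraries had 19.9, 38.4, 34.0 and 34.5, late peripheral ones 10.4, 14.6, 16.7 and 29.8, and the late core 7.91, 8.21 and 6.19. The late core overlapped the normal group through a single normal library, at 7.41, and lay wholly below both other diseased groups.

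ENTPD3, the ectonucleotidase, had 2.78, 1.5, 3.47 and 3.33 normalised reads in normal granulocytes, from 3, 2, 8 and 9 reads, so the size of its rise is loosely fixed. Early libraries had 20.5, 16, 13 and 13.4, and late peripheral ones 33.4, 61.3, 44.1 and 29.4, with no overlap between these groups. The late core had 31.6, 66.0 and 20.1, the last within the early range. Mean folds over normal were 5.67 in early, 15.2 in late peripheral and 14.2 in late core marrow.

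ASPRV1, the aspartic protease, had 394, 443, 449 and 545 normalised reads in normal granulocytes and 1662, 1473, 3352 and 1264 in early ones. It had 2003, 1588, 2600 and 1845 in late peripheral granulocytes and 3072, 1825 and 2563 in the late core. All diseased libraries were above all normal ones, with mean folds of 4.23, 4.39 and 5.43.

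**Figure D1:**
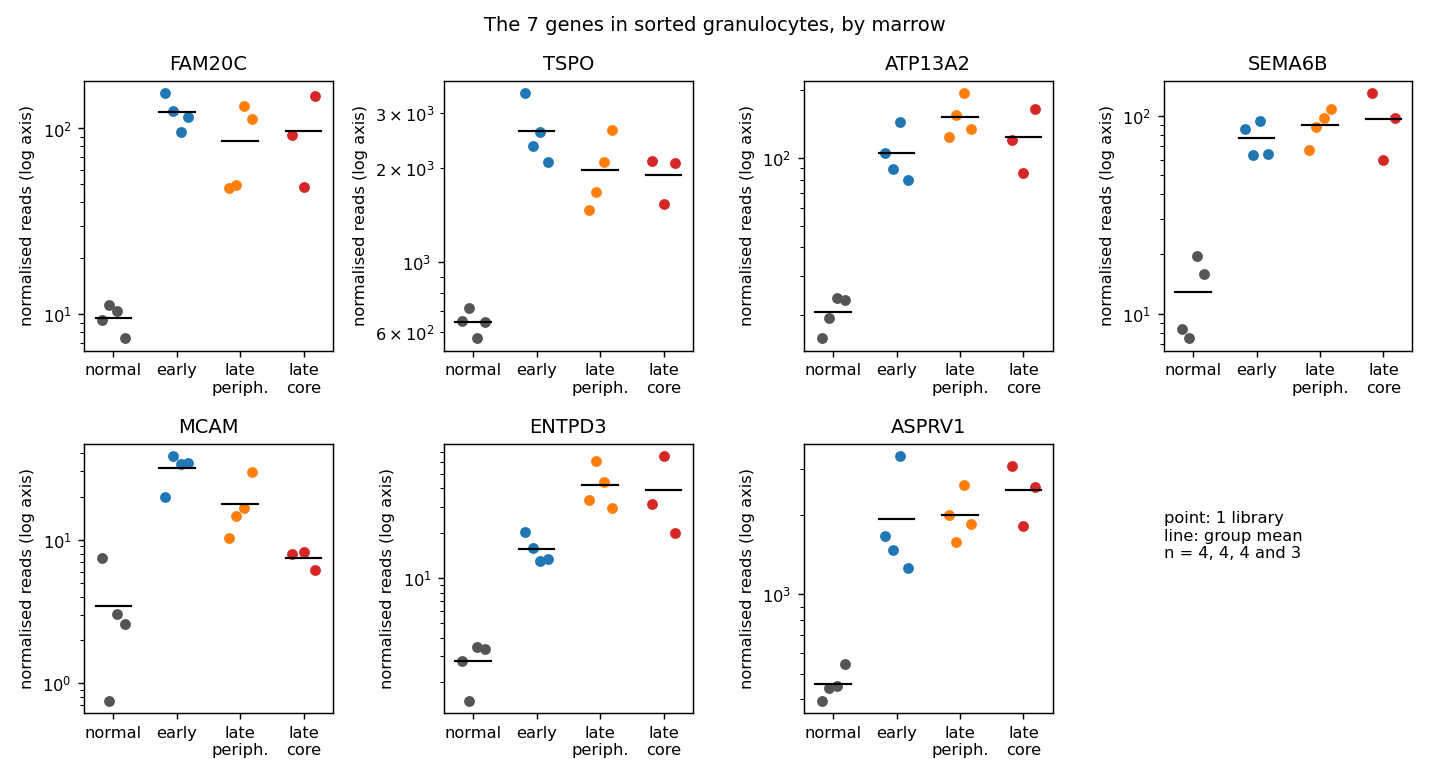
Normalised reads (log axis) of the 7 genes in each granulocyte library, by marrow; points are libraries and lines are group means. All diseased libraries lie above all normal ones except in the late core for MCAM, where values of 6.19 to 8.21 meet the highest normal library at 7.41.

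In the comparisons that chose them, all 7 genes were called higher in early than in normal granulocytes, beside 3.05% of the 3808 genes tested (limma on log2 of normalised reads plus 4, Benjamini-Hochberg adjusted p under 0.05). All 7 were also called higher in late peripheral granulocytes, beside 3.83% of all genes. No library overlapped normal marrow for any of the 7 in either comparison, as was the case for 7.38% and 9.95% of all genes. Nothing follows from these counts, since these differences are how the genes were found. The log2 differences ran from 1.54 (ENTPD3) to 3.21 (FAM20C) in early marrow and from 1.55 (MCAM) to 2.73 (ENTPD3) in late peripheral marrow. On this scale the change of genes with few reads, such as ENTPD3 and MCAM, is understated.

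The late core libraries were not used to choose the genes, but the 4 normal libraries they are compared with were, and genes low in those libraries were favoured. FAM20C, SEMA6B, MCAM and ENTPD3, 4 of the 7, had fewer than 3 normal libraries at a value of 10, so they passed the filter on low values only through diseased libraries. The shares over all genes given here are of genes not chosen in this way and are no measure of chance for the 7. Late core granulocytes had higher levels of 6 of the 7 genes than normal granulocytes, beside 6.07% of all genes called higher, and the libraries of the same 6 did not overlap, as was the case for 10.7% of all genes. The log2 difference was 2.77 ± 0.36 (SE) for FAM20C (adjusted p = 7.3e-05), 2.57 ± 0.29 for SEMA6B (1.5e-05), 2.54 ± 0.31 for ENTPD3 (4.0e-05) and 2.41 ± 0.29 for ASPRV1 (3.1e-05), all from limma. It was 2.34 ± 0.25 for ATP13A2 (1.0e-05) and 1.54 ± 0.23 for TSPO (0.00025). MCAM did not pass, at 0.69 ± 0.31 with an adjusted p of 0.17 and a 95% interval from 0.03 to 1.34.

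The late peripheral libraries helped to choose the genes, and the late core ones did not. Between these 2 late sites, none of the 7 genes passed the limma test, and 1 did at an unadjusted p under 0.05, beside 64 of all genes (1.68%) called by adjusted p and 469 at an unadjusted p under 0.05. Neither edgeR nor DESeq2 called a member. The limma fit, with the intervals below, takes the libraries of the 2 sites as independent, though some mice gave both. With the late-stage mouse as a replicate block, none of the 7 passed either. MCAM had the lowest late core to late peripheral difference, -0.87 ± 0.31 (adjusted p = 0.25 by limma, 95% interval -1.52 to -0.21), and its late core libraries all lay below its late peripheral ones, as was true of 5.17% of all genes. For the others the intervals of the log2 difference ran from -0.57 to 0.93 for FAM20C, -0.51 to 0.46 for TSPO, -0.84 to 0.21 for ATP13A2, -0.56 to 0.65 for SEMA6B, -0.84 to 0.47 for ENTPD3 and -0.31 to 0.90 for ASPRV1.

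By the animal numbers of the deposited files, 3 mice gave granulocytes from both late sites, and MCAM was lower in the core of each: 7.91 against 10.4 in mouse 6, 8.21 against 14.6 in mouse 7 and 6.19 against 16.7 in mouse 10. ATP13A2 was also lower in the core of each mouse, at 120 against 124, 85.5 against 155 and 165 against 194 in the same order. Among only 3 mice a shared sign is common without any difference. Its share over all genes was not counted, so nothing follows from the signs of these genes. ENTPD3 differed in sign between mice, with 31.6 against 33.4, 66.0 against 61.3 and 20.1 against 44.1. Mouse 7 had the most ENTPD3 and the least FAM20C of the 3 at the core.

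**Figure D2:**
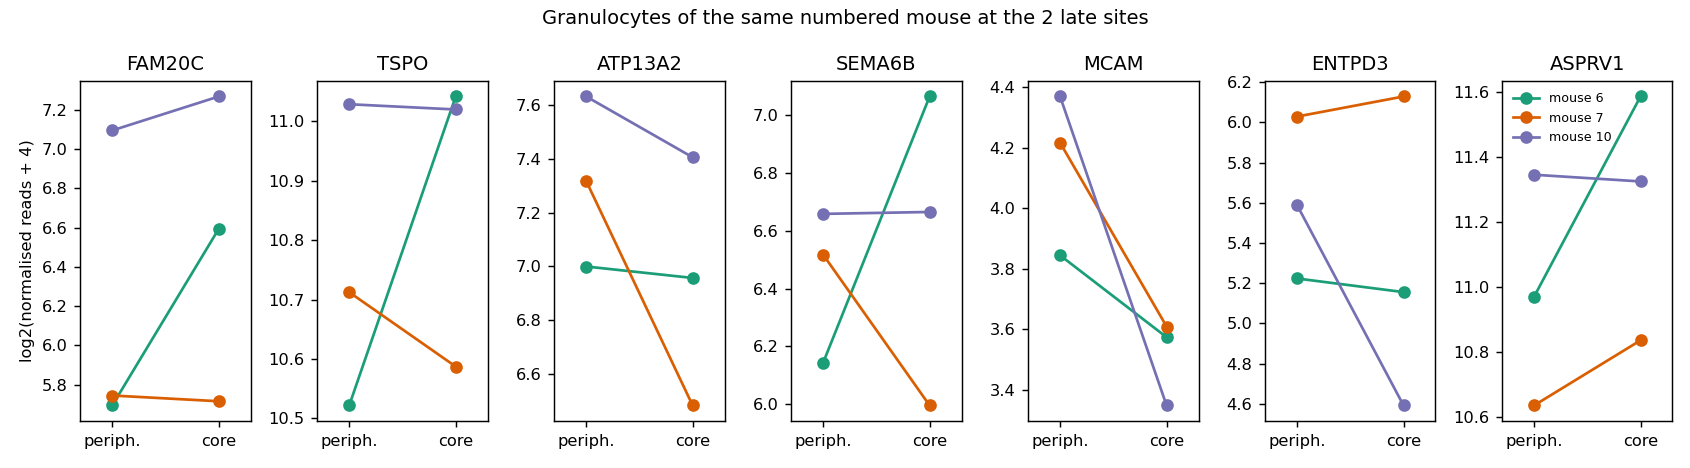
Log2 of normalised reads plus 4 in granulocytes from late peripheral marrow and from the late core; each line joins the 2 libraries of 1 numbered mouse, and each panel has its own scale. MCAM and ATP13A2 are lower at the core in all 3 mice, and the difference of each of the other 5 genes changes sign between mice. The share of all genes with the same sign in all 3 mice was not counted.

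Early and late peripheral granulocytes were both used to choose the genes, so their difference is given as values only. ENTPD3 was 1.19 higher in late peripheral than in early granulocytes on the log2 scale, and its late peripheral libraries all lay above its early ones. ATP13A2 was 0.53 higher and MCAM 0.75 lower in late peripheral granulocytes. For MCAM the groups overlapped through the late peripheral library at 29.8, and for ATP13A2 through several libraries.

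**Figure D3:**
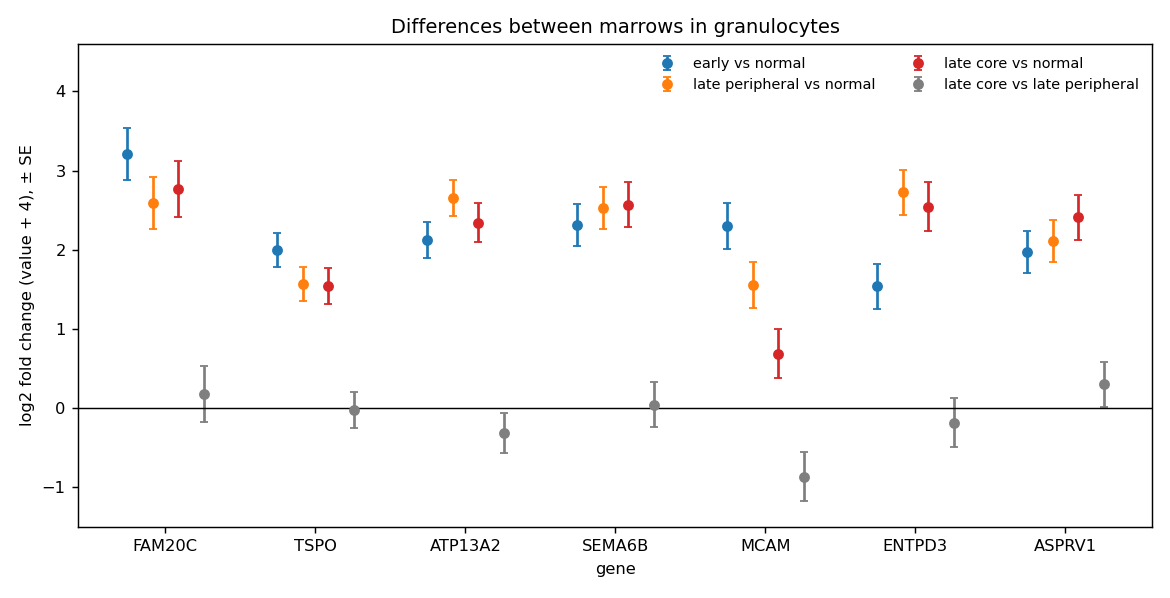
Log2 fold change with its SE for each gene in 4 granulocyte comparisons, on the scale of normalised reads plus 4. The 3 comparisons with normal marrow lie between 1.54 and 3.21 except for MCAM in the late core (0.69), and the comparison of the 2 late sites lies between -0.87 and 0.30.

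Markers of other cells that are known to express some of these genes were summed in the granulocyte libraries. For MCAM, 10 endothelial and perivascular genes summed to 3.33 to 30.7 normalised reads in normal, 5.75 to 31.9 in early, 2.67 to 25.2 in late peripheral and 3.16 to 34.0 in late core granulocytes, and RGS5 was at 0 in all 4 groups. The highest of these sums, 34.0, was in the late core, where MCAM was at 6.19 to 8.21. The highest MCAM value, 38.4, was in early marrow, where the sums reached 31.9. For FAM20C, the osteoblast genes BGLAP, IBSP and SP7 were at 0 in all 4 groups. The 8 osteoblast and stromal genes summed to 2.96 to 138 in normal, 5.01 to 163 in early, 4.58 to 114 in late peripheral and 6.33 to 114 in late core granulocytes. FAM20C itself had 7.40 to 11.2, 96.3 to 155, 47.8 to 133 and 48.6 to 150 in the same order. For ASPRV1, KRT14, KRT5, KRT1 and KRTDAP were at 0 in all 4 groups, and the 5 keratinocyte genes present summed to at most 2.43. Monocyte and macrophage genes, 9 in number, summed to 84.3 to 184 outside the core and to 297 to 412 in the core. The 7 epithelial and tumour genes summed to at most 7.50 outside the core and to 9.49 to 21.5 in it, and 5 T cell genes to at most 6.75 and to 7.91 to 17.8. The part of these other cells' transcripts in the values of the members was not tested. Without the 7 granulocyte libraries rich in lung transcripts, 2 normal, 2 early, 3 late peripheral and 1 late core library were left. The limma fit then called 7 of 7 higher in early and 7 of 7 in late peripheral against normal marrow. Over all 3380 genes tested, 95 and 195 were called higher. These comparisons chose the genes, so nothing about the lung transcripts follows from the counts. For the late core, with 1 library, no count is given.

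The 7 genes did not follow each other closely within a marrow. Over the 21 pairs of members, Pearson's r between log2 values across the 15 granulocyte libraries was 0.45 to 0.97, but these values rest on the step between normal and diseased marrow. After the group means were removed, r ran from -0.54 (FAM20C with ENTPD3) to 0.76 (ATP13A2 with ASPRV1), with a median of 0.11. FAM20C and TSPO kept an r of 0.73, and ATP13A2 and SEMA6B 0.67, which places FAM20C with TSPO and ATP13A2 with ASPRV1 and SEMA6B. ENTPD3 was negative with all of the other 6. These r values share library depth and are given as descriptions.

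The genes whose pattern over the 15 libraries was most like the mean profile of the 7 were IFITM2 (r = 0.96), ALOX5AP (0.96), NOS2 (0.95), FLOT2 (0.93), EFHD2 (0.93) and SLC7A5 (0.92). IFITM2 is an interferon-induced membrane protein, ALOX5AP activates leukotriene synthesis, NOS2 is the inducible nitric oxide synthase and SLC7A5 a chain of a large neutral amino acid transporter. NOS2 had a mean of 2.85 ± 2.55 normalised reads in normal granulocytes and 52.7 ± 7.80, 64.3 ± 51.2 and 83.6 ± 39.5 in early, late peripheral and late core ones. Member by member, IFITM1 was nearest to FAM20C (r = 0.98, and 0.91 within groups), IFITM2 to TSPO (0.99, 0.88), SLC7A5 to ATP13A2 (0.96, 0.69) and to ASPRV1 (0.94, 0.69), and NOS2 to SEMA6B (0.96, 0.73). GPR146, a G protein-coupled receptor, was nearest to MCAM (0.89, 0.70) and shared its low late core mean of 6.21 ± 2.62 beside 18 ± 4.07 in early marrow. EIF2B2, a subunit of the exchange factor of translation initiation, was nearest to ENTPD3 (0.94, 0.59).

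Relatives of the members were mostly absent from granulocytes or did not pass the test. Of the secretory kinases, FAM20A was near 0 (at most 1.62 normalised reads in any library) and FAM20B had group means of 8.31 to 11.1 with no call. Among 6 tested genes of polyamine metabolism besides ATP13A2, OAZ2, an antizyme that restrains polyamine synthesis, rose by 0.82 ± 0.22 in early, 0.90 ± 0.22 in late peripheral and 0.73 ± 0.23 in late core marrow on the log2 scale (adjusted p of 0.033, 0.016 and 0.048 by limma). SLC3A2, the heavy chain that partners SLC7A5, passed against normal marrow in the late core, where it rose (0.88 ± 0.22, adjusted p = 0.015 by limma), and was above late peripheral marrow by 0.97 (0.028). ATP13A1 had no call and ATP13A3 was at or below 5.45 in every library. Of 9 tested partners of TSPO, VDAC1, the outer-membrane channel, fell by 0.95 in the late core (adjusted p = 0.030 by limma) and none rose.

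Semaphorins and adhesion molecules other than the members moved down where they moved, beside 1.73%, 4.31% and 6.49% of all genes called lower in early, late peripheral and late core marrow. Of the class 6 semaphorins, SEMA6A, SEMA6C and SEMA6D had at most 0.809 normalised reads in any granulocyte library. Of 4 tested genes among the semaphorins, plexins and neuropilins, SEMA7A fell by 1.42 in early marrow (adjusted p = 0.0047) and SEMA4F fell by 1.17 in the late core (0.032, both by limma). Of 6 tested immunoglobulin adhesion molecules, NCAM1 fell by 1.54, 1.53 and 1.66 in early, late peripheral and late core marrow (adjusted p of 0.020, 0.016 and 0.011 by limma). ICAM2 fell by 1.46 in late peripheral marrow (0.0081) and CEACAM1 by 1.27 in the late core (0.032), and none of the 6 rose.

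Among 4 tested genes of purine signalling, P2RY6, a receptor for uridine nucleotides, rose by 1.23 ± 0.34 in early marrow and 1.2 ± 0.37 in the late core (adjusted p of 0.041 and 0.039 by limma). P2RY2, which answers to ATP and UTP, rose by 0.88 ± 0.25 in late peripheral marrow and 0.90 ± 0.27 in the late core (0.040 and 0.039). ENTPD1, the ectonucleotidase CD39, had at most 4.06 normalised reads in any granulocyte library and NT5E at most 9.47. Of 7 tested aspartic proteases, NAPSA rose by 0.99 ± 0.22 and 1.38 ± 0.23 in late peripheral and late core marrow, and PSEN2 by 0.63 ± 0.18 and 0.85 ± 0.20 (adjusted p of 0.0090, 0.00083, 0.040 and 0.0089 by limma). CTSE fell by 1.05 in the late core (0.015), and CTSD, the main lysosomal aspartic protease, was 0.90 ± 0.28 higher in early marrow without passing (0.081). NAPSA is also a gene of lung epithelium, and 2 of the 4 normal, 2 of the 4 early, 1 of the 4 late peripheral and 2 of the 3 late core libraries were rich in lung transcripts. NAPSA had 93.3 to 109 normalised reads over the normal libraries of both kinds, 166 to 254 in late peripheral and 218 to 388 in late core ones.

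In normal marrow, 3 of the 7 genes had enough reads for a test between populations. The 4 normal granulocyte libraries in it are the reference of the comparisons that chose the genes, which favoured low values there. ASPRV1 was higher in granulocytes by 5.30 ± 0.77 than in CD4, 4.81 ± 0.77 than in CD8 and 5.26 ± 0.77 than in Treg on the log2 scale (adjusted p of 4.2e-05, 0.00010 and 4.5e-05 by limma). TSPO was higher by 1.48, 1.5 and 1.82 (2.1e-07, 1.8e-07 and 6.4e-09). ATP13A2 went the other way and was lower in granulocytes by every comparison, at -2.20, -0.80 and -2.82 (5.4e-12, 0.00012 and 6.8e-14). Calls were common in these comparisons: 34.4%, 34.6% and 32.1% of all genes were higher in granulocytes, and 33.2%, 33.8% and 37.5% were lower. Normal Treg libraries held 7032 to 7997 normalised reads of 9 monocyte and macrophage genes. CD4 held 277 to 474, CD8 106 to 1233 and granulocytes 140 to 173. The 5 T cell genes summed to 146 to 190 in Treg, 305 to 375 in CD4 and 487 to 628 in CD8. The part of these transcripts in the differences was not tested.

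The order of ATP13A2 over the populations differed between marrows, and the place of granulocytes in diseased marrow depended on the scaling. In normal marrow it had 168 ± 12.9 normalised reads in Treg (SD, n = 4), 108 ± 4.33 in CD4, 39.0 ± 7.80 in CD8 and 20.6 ± 3.78 in granulocytes, with no overlap between neighbours. In early marrow the means were 160 ± 69.0, 125 ± 27.3, 104 ± 7.41 and 105 ± 28.6, and all neighbours overlapped. In late peripheral marrow granulocytes had 152 ± 31.0, above Treg at 111 ± 20.2, CD4 at 88.6 ± 32.6 and CD8 at 54.0 ± 25.5, where Treg overlapped both neighbours. In the late core granulocytes had 124 ± 40.1, Treg 74.9 ± 11.7, CD4 40.3 ± 7.27 and CD8 22.6 ± 10.3. With reads scaled to the library total instead (CPM), mean levels in granulocytes were not above those in Treg in either late marrow. They were 373 against 382 in late peripheral marrow and 242 against 271 in the late core. On that scale early granulocytes, at 173 to 291, lay wholly below early CD8, at 353 to 430. The order of the means in normal marrow was the same by both scalings.

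Within T cells, ATP13A2 was the one member called between marrows, and it fell in the late core. In CD4 it had 106, 114, 104 and 110 normalised reads in normal and 48.6, 36.5 and 35.6 in late core marrow, a log2 difference of -1.35 ± 0.27 (adjusted p = 0.0068 by limma), beside 1.79% of all genes called lower. The late peripheral CD4 libraries had 78.2, 46.9, 114 and 115, and the late core was below them by 1.00 ± 0.27 without passing, beside 0.419% of all genes called lower (adjusted p = 0.061 by limma, 0.046 by edgeR, 0.029 by DESeq2, and 0.0049 by limma without replicate 2 of late peripheral CD4). In Treg it had 166, 172, 152 and 183 in normal and 66.2, 88.3 and 70.4 in late core marrow, a difference of -1.13 ± 0.25 (adjusted p = 0.0096 by limma), beside 4.46% of all genes called lower and a median of -0.11 over all genes. The groups did not overlap in either population. For T cells the share of all genes without overlap was not counted, here or below. CD3E, a T cell chain, differed between the same groups, at 22.6 to 31.3 in normal and 42.7 to 77.7 in late core CD4, and at 8.33 to 16.7 and 32.7 to 65.9 in Treg. In Treg, the 9 monocyte and macrophage genes summed to 7032 to 7997 in normal and 225 to 2742 in late core libraries, 5 B cell genes to 68.7 to 136 and 6.54 to 16.8, and 4 eosinophil genes to 34.4 to 137 and 0 to 11.2. In CD4, the B cell genes summed to 23.1 to 42.5 in normal and 4.86 to 16.2 in late core libraries, and the monocyte and macrophage sums overlapped, at 277 to 474 and 171 to 1300. The part of these transcripts in the fall of ATP13A2 was not tested.

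In CD8, ATP13A2 was higher in early than in normal marrow: 112, 94.5, 104 and 108 normalised reads against 50.7, 36.3, 34.3 and 34.9. The log2 difference was 1.35 ± 0.27 (adjusted p = 0.010 by limma), beside 1.33% of all genes called higher and a median of -0.10 over all genes. Late peripheral CD8 libraries had 72.0 and 36.0, and late core ones 15.3 and 29.9, and none of those comparisons passed. In CD8, S100A8 and S100A9, the calprotectin genes of neutrophils, together had 2810 to 26831 in early and 278 to 2424 in normal libraries, and CD3E had 0 to 48.7 and 50.7 to 73.6. The part of these transcripts in the early rise of ATP13A2 was not tested. Without the libraries rich in lung transcripts, ATP13A2 did not pass in T cells, but few libraries were left. Its log2 difference was -1.57 in CD4, with 1 normal and 1 late core library (adjusted p = 1.0 by limma). It was -0.92 in Treg, with 1 normal and 2 late core libraries (0.58 by limma), and 1.24 in CD8, with 2 normal and 4 early libraries (0.25 by limma). The CD4 call was also lost without replicate 2 of the late core (-1.30, adjusted p = 0.055 by limma).

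TSPO was present in all T cell libraries, and none of its differences between marrows passed. In Treg it had 180, 161, 249 and 143 normalised reads in normal, 378, 506 and 292 in early, 336, 441 and 233 in late peripheral, and 247, 320 and 277 in late core marrow. Early Treg libraries were thus all above normal ones, with a log2 difference of 1.08 ± 0.25 and an adjusted p of 0.12 by limma. With the late-stage mouse as a replicate block, TSPO passed in Treg of early and late peripheral marrow (1.08 and 0.85, adjusted p of 0.032 and 0.033 by limma). The early difference also passed by DESeq2 (0.038) and with the title number as a replicate block (0.044 by limma). It passed without replicate 3 of late peripheral Treg too (0.036 by limma). The late peripheral one passed without that library (0.026 by limma) and without replicate 3 of normal Treg (0.032 by limma). The 7 neutrophil genes summed to 4065 to 9229 in normal, 10835 to 18585 in early, 5398 to 22117 in late peripheral and 2317 to 5475 in late core Treg libraries, and their part in the values of TSPO was not tested. In CD4 its means were 233 ± 58.4, 295 ± 84.6, 255 ± 65.6 and 217 ± 19.3 in normal, early, late peripheral and late core marrow.

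FAM20C and SEMA6B had enough reads for a test only in Treg, where neither was called. FAM20C had 4.43, 7.69, 0 and 5.45 normalised reads in normal Treg libraries, 24.7, 19.1 and 17.8 in early ones, 14.7, 8.86 and 4.31 in late peripheral and 28.1, 29.4 and 2.99 in late core ones. Its early difference was 1.64 ± 0.51 (adjusted p = 0.33 by limma). These groups did not overlap, but the early libraries held only 7 to 15 reads of FAM20C. Its late core difference of 1.32 ± 0.51 did not pass (adjusted p = 0.15 by limma). It did with a replicate block by late-stage mouse or by title number (0.041 by limma in each). It also passed without replicate 3 of the late core (2.07, adjusted p = 0.013 by limma). In CPM, recovered reads scaled to the library total, FAM20C over all 40 T cell libraries had 20.3 from 243 reads (95% exact Poisson interval 17.8 to 23.0, counting error only), and SEMA6B 17.8 (15.5 to 20.3), beside 175 and 147 in the pooled granulocytes.

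MCAM and ENTPD3 had too few reads for a test in any T cell population. ENTPD3 had 12 reads over the 40 libraries, 31 of them at 0, or 1.00 CPM (95% exact Poisson interval 0.518 to 1.75), beside 59.3 in granulocytes. MCAM had 39 reads with 17 libraries at 0, or 3.26 CPM (2.32 to 4.45), beside 38.6 in granulocytes.

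**Figure D4:**
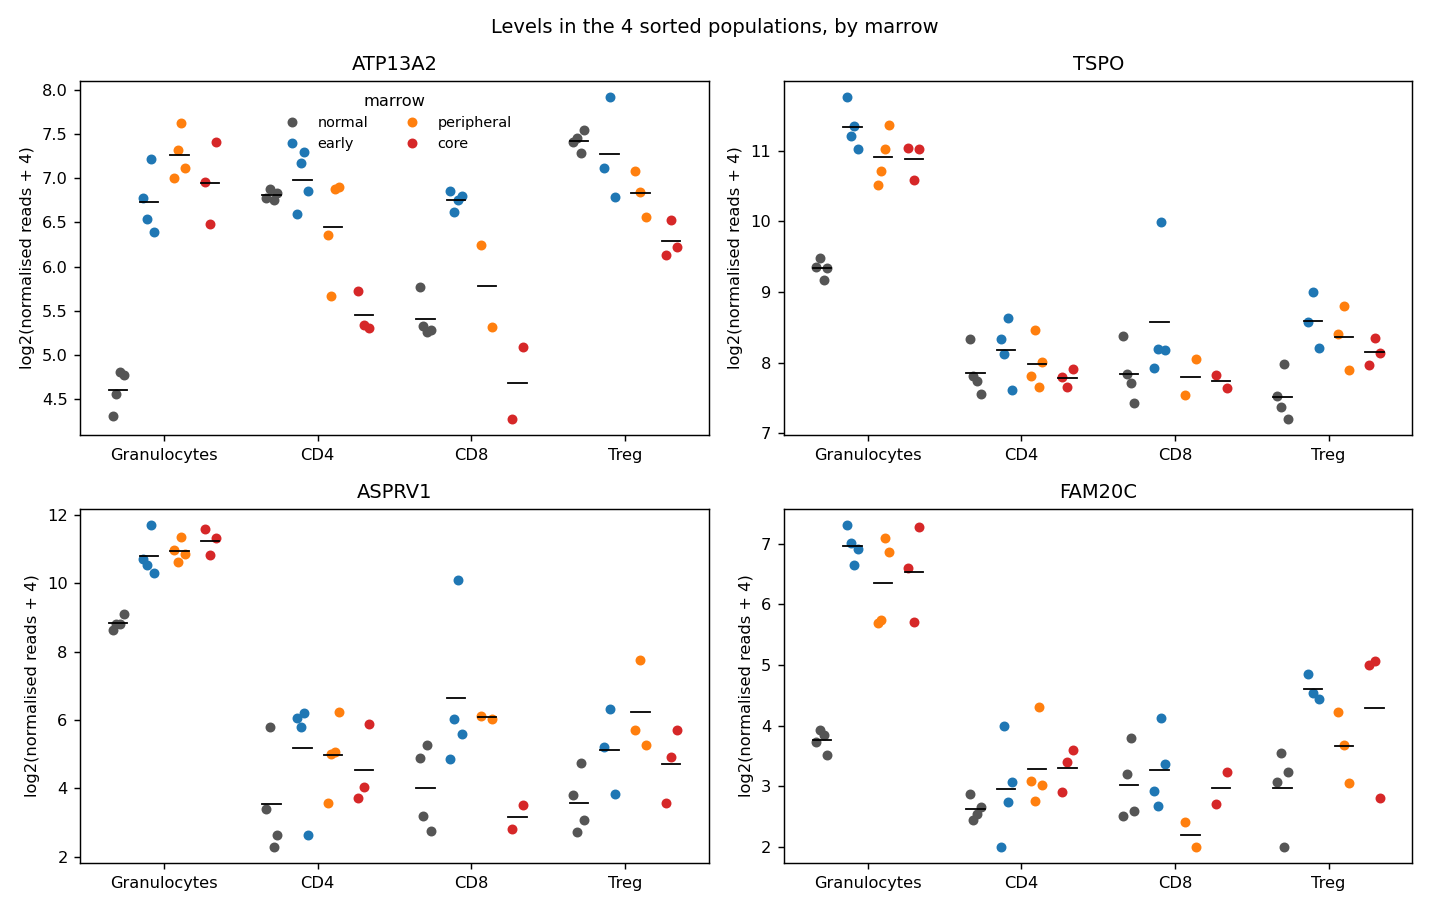
Log2 of normalised reads plus 4 for ATP13A2, TSPO, ASPRV1 and FAM20C in every library of the 4 populations, by marrow; points are libraries and lines are means on this scale. ATP13A2 is lowest in granulocytes in normal marrow and falls in late core CD4 and Treg, whereas TSPO and ASPRV1 are highest in granulocytes in every marrow.

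ASPRV1 varied widely between T cell libraries of the same group, and no difference between marrows passed the limma test with all libraries. It had 6.61, 51.8, 0.905 and 2.27 normalised reads in normal CD4 and 63.0, 51.6, 69.7 and 2.21 in early CD4, so that the groups overlapped at both ends. In CD8 it had 25.8, 5.18, 34.3 and 2.74 in normal and 25.3, 61.5, 1094 and 44.4 in early marrow. Replicate 3 of early CD8 stood apart from all other T cell libraries, at 1094 against at most 213, and it also had the most S100A8 and S100A9 of the 40, at 26831. The same library had 1010 normalised reads of TSPO, beside 238 to 288 in the other early CD8 libraries, and 80.3 of SEMA6B, beside at most 3.61. With and without it, the early log2 difference in CD8 was 2.62 and 1.47 for ASPRV1 (adjusted p of 0.21 and 0.11 by limma) and 0.73 and 0.26 for TSPO (0.27 and 0.54). For ATP13A2 it was called either way. With the title number as a replicate block, the early difference of ASPRV1 in CD8 passed (adjusted p = 0.037 by limma). Late peripheral CD8 libraries had 65.6 and 61.8 normalised reads of ASPRV1 and late core ones 3.07 and 7.42, a log2 difference of -2.91 that passed without replicate 3 of early CD8 (adjusted p = 0.049 by limma) and not with it (0.54).

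In Treg, ASPRV1 had 9.96, 2.56, 22.6 and 4.36 normalised reads in normal and 48.1, 213 and 34.5 in late peripheral marrow, with no overlap. The log2 difference was 2.67 ± 0.78 and did not pass by limma (adjusted p = 0.10), but did by DESeq2, where it was 3.40 (0.0046). Early Treg libraries had 33.0, 76.6 and 10.2 and late core ones 7.86, 26.1 and 47.9, both overlapping normal marrow. S100A8 and S100A9 summed to 2199 to 5528 in normal, 8307 to 15027 in early, 3142 to 14365 in late peripheral and 1939 to 3638 in late core Treg, and their part was not tested.

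**Figure D5:**
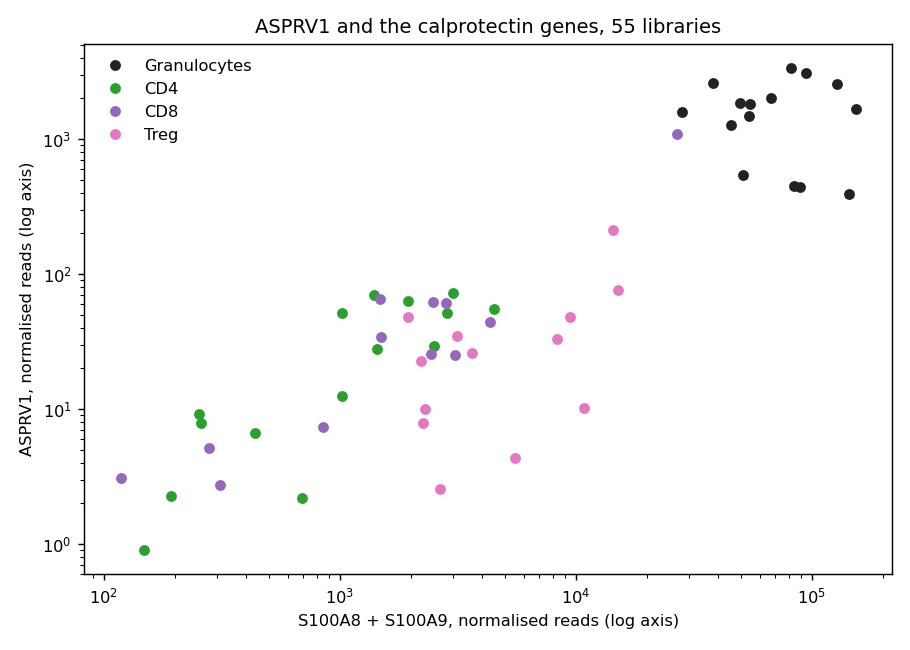
ASPRV1 against the sum of S100A8 and S100A9, both in normalised reads on log axes, in each of the 55 libraries, coloured by population. The early CD8 library at 1094 and 26831 lies beside the granulocytes, and the 4 granulocyte libraries at the bottom of their cluster, at 394 to 545 of ASPRV1, are those of normal marrow.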

How the data were processed

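Granulocyte, CD4, CD8 and Treg libraries were grouped by population and marrow from their titles, in 16 groups. The submitters' processing notes name fastp 0.20.0, STAR 2.6.0c, DESeq2 1.30.1 and the build GRCm38 (mm10), with no account of read counting. The authors deposited a normalised signal per gene, in which every library has a single scaling factor: dividing by the value of a single read gave whole reads for 100% of values within 0.01. Median-of-ratios factors recomputed over the 55 libraries on 2679 genes followed the deposited ones with a coefficient of variation of 1.19%, so populations share 1 scaling. Features without a symbol held at most 0.0124% of a library. Genes carry human-style symbols and Ensembl IDs, and coordinates were looked up by mouse symbol in GENCODE (GRCm38); promoters are RefSeq's.

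Tests used limma 3.58.1 (R 4.3.3; trend and robust options) on log2(value + 4), fitted once per population and once over the 16 normal-marrow libraries. Genes entered with a value of 10 or more in a number of libraries equal to the smallest group's size, with Benjamini-Hochberg adjustment over 4793 Treg, 4891 CD8, 4534 CD4 and 3808 granulocyte genes. Alternatives were pseudocounts of 1 and 16, no filter, 2 other scalings, edgeR 4.0.16 and DESeq2 1.42.0 on the recovered reads, replicate blocks, leaving out each library, and leaving out libraries whose 6 lung genes sum to over 200. Differences between populations in a stage effect came from 1 limma fit of all libraries over 6498 genes, chosen after seeing the data, as was scaling by library totals.

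The 7 genes, the gene lists and the tests were chosen with earlier results of these data known. Named beside the 7 were up to 3 passing genes of each family list, their nearest relatives, the 6 genes most correlated with the mean profile of the 7, and the 2 most correlated with each, of which the first is given. The tests were first checked on simulated counts, as late core against normal marrow by limma. Of 4-fold changes, 94%, 87%, 64% and 87% were recovered in granulocytes, CD4, CD8 and Treg. Of 2-fold changes, 44%, 18%, 7% and 15% were recovered, so a difference of that size would often not pass. False calls numbered 11, 3, 1 and 6. The design pairs the late sites by mouse, and the main fit does not use that pairing. For mice matched by the numbers of the deposited files, deviations of the 2 sites correlated at 0.07 to 0.29 for T cells (8 pairs) and at -0.34, 0.51 and 0.19 for granulocytes; title numbers of the other groups gave mixed signs.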

Additional observations from a re-analysis of the deposited data

Results flagged for a closer look

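Single libraries stood far from the rest of their group in 9 of the 60 groups of 4 libraries examined. No rate of chance that holds at few reads was worked out for these 9. Replicate 3 of early CD8 accounts for 3 of them, with 1010 normalised reads of TSPO (the others 238 to 288), 80.3 of SEMA6B (0 to 3.61) and 1094 of ASPRV1 (25.3 to 61.5). ASPRV1 was at 51.8 in replicate 2 of normal CD4, beside 0.905 to 6.61. FAM20C was at 15.7 in replicate 3 of late peripheral CD4, from 8 reads, beside 2.74 to 4.44. ATP13A2 was at 50.7 in replicate 1 of normal CD8, beside 34.3 to 36.3. ENTPD3 had a single read where the rest of the group had 0 in replicate 2 of late peripheral CD4 (0.342 normalised reads), replicate 3 of normal CD8 (1.63) and replicate 3 of normal Treg (0.982).

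The change of ATP13A2 from normal to early marrow differed between CD8 and Treg by 1.5 ± 0.36 on the log2 scale (adjusted p = 0.044 by limma), higher in all 4 early CD8 libraries than in any normal one and in 1 of 3 early Treg libraries. Of 29 such differences computed for the members, this is the 1 that passed. Over all 6498 genes, 32 passed in this comparison and 4 to 238 in the others. All these comparisons were chosen after seeing the data. Between CD8 and CD4 the difference for ATP13A2 was 1.18 ± 0.35 (adjusted p = 0.10 by limma).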

How the results depend on the processing

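The granulocyte counts of 7 members in early and 7 in late peripheral against normal marrow were the same under every alternative run. Those 2 comparisons chose the genes, so nothing follows from that. The counts of 6 in late core against normal and 0 between late sites were the same under every alternative that left more than 1 late core library. In T cells and between populations the counts of calls moved. In CD4 the calls over all 4534 genes moved too. The main fit called 81 genes lower in the late core than in normal marrow and 19 lower than in late peripheral marrow. DESeq2 called 134 and 38, and edgeR 90 and 18. Shares over all genes under the other T cell settings are not given, so nothing about the members follows from a moved count. In CD4, with 1 call, edgeR and DESeq2 gave 2, leaving out lung-rich libraries gave 0, and leaving out single libraries gave 0 to 2. In CD8, with 1 call, the replicate block by title number gave 2 and leaving out single libraries 1 to 2; without lung-rich libraries no late core CD8 library was left for that count, and the 1 call was lost. In Treg, with 1 call, DESeq2 gave 3, the replicate block by title number 3, the replicate block by late-stage mouse 4, leaving out lung-rich libraries 0 and leaving out single libraries 1 to 3. Without a filter on low values, 6, 5 and 5 members were higher in normal granulocytes than in CD4, CD8 and Treg, instead of 2, 2 and 2. With the filter, 34.4%, 34.6% and 32.1% of all genes were called higher, and the shares without it are not given here. Among the added calls is ENTPD3, with 2 to 9 reads in normal granulocyte libraries and 0 in every normal CD4 library. The replicate block by late-stage mouse left 1 call in CD4 and 1 in CD8. Log2 differences between the late sites that lie near 0 changed sign. FAM20C (0.18) was at -0.0910 with library-total scaling and from -0.19 to 0.58 without single libraries. TSPO (-0.03) was at 0.00756 with median-of-ratios scaling, 0.00904 with DESeq2, 0.13 with the late-stage mouse as replicate block, 0.00418 without lung-rich libraries and from -0.15 to 0.13 without single libraries. SEMA6B (0.04) was at -0.23 with library-total scaling and from -0.20 to 0.33 without single libraries, and ENTPD3 (-0.18) from -0.60 to 0.17. The causes were not tested. Of the settings, library-total scaling was added after seeing the data. In normal granulocytes, 1 to 9 reads per library limit the size of the rises of MCAM and ENTPD3.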

Other observations

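ASPRV1 was also set against the calprotectin genes within each library. Per 1000 normalised reads of S100A8 and S100A9, granulocytes had 2.75 to 10.6 of ASPRV1 in normal, 10.8 to 41.1 in early, 29.9 to 68.4 in late peripheral and 20.01 to 33.4 in late core marrow. The normal group overlapped no other, but its highest value, 10.6, was close to the lowest early one, 10.8. ASPRV1 was chosen for its rise over these normal libraries, so the separation is described and carries no test. Replicate 3 of early CD8 had 40.8, and replicate 3 of early granulocytes had 41.1. T cell libraries ran from 0.789 to 50.7, and replicate 2 had 50.7 in normal CD4 but 4.98 in normal granulocytes. Nothing follows from the likeness of a single pair. The labels do not say whether libraries with the same number share an animal.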
